A study of Mus musculus with 6 samples.

Results

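The genes described here are 36 named chaperones, folding enzymes, degradation factors and stress sensors of the endoplasmic reticulum (ER), chosen as a list of symbols and matched to the array by single gene symbol under the old or the current name. Of the 36 genes 32 were measured, out of 15045 genes tested in the study. Dnajc3, Ero1lb, Edem3 and Atf6 had no probe set with that single symbol and were not analysed here. The study compared livers of 3 mice homozygous for a Dhx32 mutation (Dhx32-/- in the labels) with livers of 3 wild type control mice. All 6 were males of 6 to 8 weeks, and total RNA of each snap-frozen liver went onto 1 exon-level array, which carries several probe sets per gene. Dhx32 encodes a DEAH-box RNA helicase. The allele, the strain background and any kinship between the mice are not given in the sources used here, so p-values measure the spread between these 6 samples.

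Secreted and membrane proteins fold in the ER, where the Hsp70 chaperone Hspa5 (BiP), lectin chaperones and disulfide isomerases act on them. Proteins that fail to fold are passed back to the cytosol, tagged with ubiquitin and degraded, which is called ER-associated degradation. When unfolded proteins accumulate, the sensors Ern1 (IRE1), Atf6 and Eif2ak3 (PERK) start the unfolded protein response, and the factors XBP1 and ATF6 then raise transcription of many of these genes. Hepatocytes secrete most plasma proteins and carry a large ER.

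Dhx32 itself averaged 6.66 ± 0.35 in mutants and 8.58 ± 0.29 in controls on the log2 scale (SD, n = 3 each), with no overlap and in the direction of the labels (limma, adjusted p = 0.183 over all genes). Hepatocyte markers were bright on every array, with list means of 12.9 to 13.3 in mutants and 13.1 to 13.2 in controls. One array was unlike the rest. Mutant replicate 1 correlated with the others at 0.935 to 0.940 over all probe sets, and the other 5 correlated with each other at 0.960 to 0.973. Results are therefore also given without it. All values below are log2 signals or differences of them, mutant minus control, and a fold is a power of 2 of such a difference. An SE is limma's moderated SE, which draws on the spread of all genes and not only on the gene's own livers. It can be larger or smaller than the spread of the printed values. These are bulk livers, so a change in the number of cells that express a gene cannot be told apart from a change in RNA per cell.

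Most of the ER genes had higher signals in mutant livers, by modest amounts. The mutant mean was above the control mean in 29 of the 32 measured genes, where 47.5% of all genes tested had this direction, and below it in 3 (Erp44, Derl2 and Os9). The median difference was 0.31, against -0.01 over all genes tested. In 13 of the 32 genes, or 40.6%, every mutant lay above every control, where 5.15% of all genes did so. In 0 of the 32 did every mutant lie below every control, against 4.32% of all genes. No single gene passed limma's threshold of 0.05 after Benjamini-Hochberg adjustment over all genes, a threshold that 1 gene (0.00665%) passed in the whole study. At an unadjusted p under 0.05, 11 of the 32 (34.4%) were higher and 0 lower, beside 2.01% and 2.2% of all genes. Without mutant replicate 1 the median was 0.29, against 0.02 over all genes, and 30 of 32 genes were higher (54.5% of all genes). Both remaining mutants then lay above every control in 17 of 32 genes (10.4% of all genes) and below in 0 (6.91%), and 10 of 32 had an unadjusted p under 0.05 in the higher direction (2.63%). The groups of 3 do not allow an exact two-sided permutation p below 0.1 for any single gene.

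Promoter sequences are shown for the measured members that hold the ER stress element, the sequence through which ATF6 and NF-Y act, or a second form of it. The genes shown were chosen by this match and not by their differences. The differences did decide that Derl3 is shown as a whole window and that Sdf2l1, Dnajb9 and Manf are named below. The windows come from RefSeq on build GRCm38.p6, run from 250 bases before to 50 bases after a gene's start, and were found for 32 of the 36 genes (29 of the measured ones). The element was searched on both strands as CCAAT, then any 9 bases, then CCACG. It was present in 10 of the 32 genes with a window (31.2%, Dnajc3 and Ero1lb among them), against 37 of 27025 genes (0.137%) and 39 of 32851 windows (0.119%) in all. ATF6 raises many of these genes, as stated above, so the element was searched where it was likely to be found. The difference between these shares was not tested. The 8 measured genes with it were Derl3, Hspa5, Creld2, Syvn1, Pdia6, Hsp90b1, Canx and Calr. Sdf2l1 and Dnajb9, with differences of 1.32 and 1.01, had a window without it, and Manf (0.94) had no window. A match of letters is a description and not a measured binding site. Capitals mark the element, which reads CCAAT to CCACG, or, where it lies in the opposite direction, CGTGG to ATTGG. The whole windows of Derl3, the member with the largest difference, and of Hspa5, the central chaperone, are as follows.
Derl3 (chr10:75893148-75893447, plus strand): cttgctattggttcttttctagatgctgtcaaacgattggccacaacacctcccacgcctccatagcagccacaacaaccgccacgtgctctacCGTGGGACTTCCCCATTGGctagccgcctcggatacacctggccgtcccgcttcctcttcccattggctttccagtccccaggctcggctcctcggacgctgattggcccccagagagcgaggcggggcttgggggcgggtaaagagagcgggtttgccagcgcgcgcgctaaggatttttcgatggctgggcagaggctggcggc
Hspa5 (chr2:34771840-34772139, plus strand): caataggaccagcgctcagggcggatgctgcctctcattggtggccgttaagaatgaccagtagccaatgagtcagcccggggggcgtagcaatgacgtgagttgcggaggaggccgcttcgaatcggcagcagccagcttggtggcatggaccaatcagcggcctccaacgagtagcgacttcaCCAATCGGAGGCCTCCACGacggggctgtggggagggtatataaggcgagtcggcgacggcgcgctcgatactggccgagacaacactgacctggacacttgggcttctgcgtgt

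The same element in the other 6 measured genes is shown with 20 bases on each side, in the direction of the gene. Hsp90b1 had 2 copies.
Creld2 (chr15:88819500-88819558, plus strand): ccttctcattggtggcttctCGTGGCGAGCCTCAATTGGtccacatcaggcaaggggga
Syvn1 (chr19:6046512-6046570, plus strand): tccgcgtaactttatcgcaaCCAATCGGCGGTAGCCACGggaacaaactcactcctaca
Pdia6 (chr12:17266471-17266529, plus strand): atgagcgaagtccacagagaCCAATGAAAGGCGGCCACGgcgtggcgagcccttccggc
Hsp90b1, element farther from the start (chr10:86705618-86705676, minus strand): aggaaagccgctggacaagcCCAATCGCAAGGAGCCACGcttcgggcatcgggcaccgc
Hsp90b1, element nearer to the start (chr10:86705513-86705571, minus strand): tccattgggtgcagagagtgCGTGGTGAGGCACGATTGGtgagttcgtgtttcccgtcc
Canx (chr11:50325780-50325838, minus strand): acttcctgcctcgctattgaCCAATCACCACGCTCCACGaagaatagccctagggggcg
Calr (chr8:84847055-84847113, minus strand): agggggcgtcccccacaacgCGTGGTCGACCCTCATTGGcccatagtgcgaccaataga

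A second form of the element, ATTGG, any single base and CCACG, was found in 12 of 27025 genes (0.0444%), and 2 of them were members. The capitals mark it in both.
Dnajb11 (chr16:22857832-22857882, plus strand): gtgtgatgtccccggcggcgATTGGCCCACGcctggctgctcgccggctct
Herpud1 (chr8:94386357-94386407, plus strand): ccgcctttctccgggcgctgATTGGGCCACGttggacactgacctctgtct

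The core CCACG alone was common, being found in 29 of 32 members with a window and in 35.5% of all genes. It overlaps both elements, since it forms their last 5 letters. The XBP1 element TGACGTGG was found in Txndc5 and Vcp (0.714% of all genes), and the cyclic AMP element TGACGTCA in 0 of the 32 (2.03% of all genes). The 8 measured genes with the ER stress element had a median difference of 0.56, all 8 with a higher mean in mutants (47.5% of all genes), and in 5 every mutant lay above every control (5.15% of all genes). The 21 measured genes with a window and without this element had a median of 0.15, with 18 higher and 7 with no overlap. The difference between these subsets was not tested. Outside the list, 9 further genes with the element were tested, and their median difference was 0.02. Of these 9, Alg12, an ER enzyme that helps to build sugar chains before they are attached to proteins, was the single one with every mutant above every control (0.55).

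**Figure D1:**
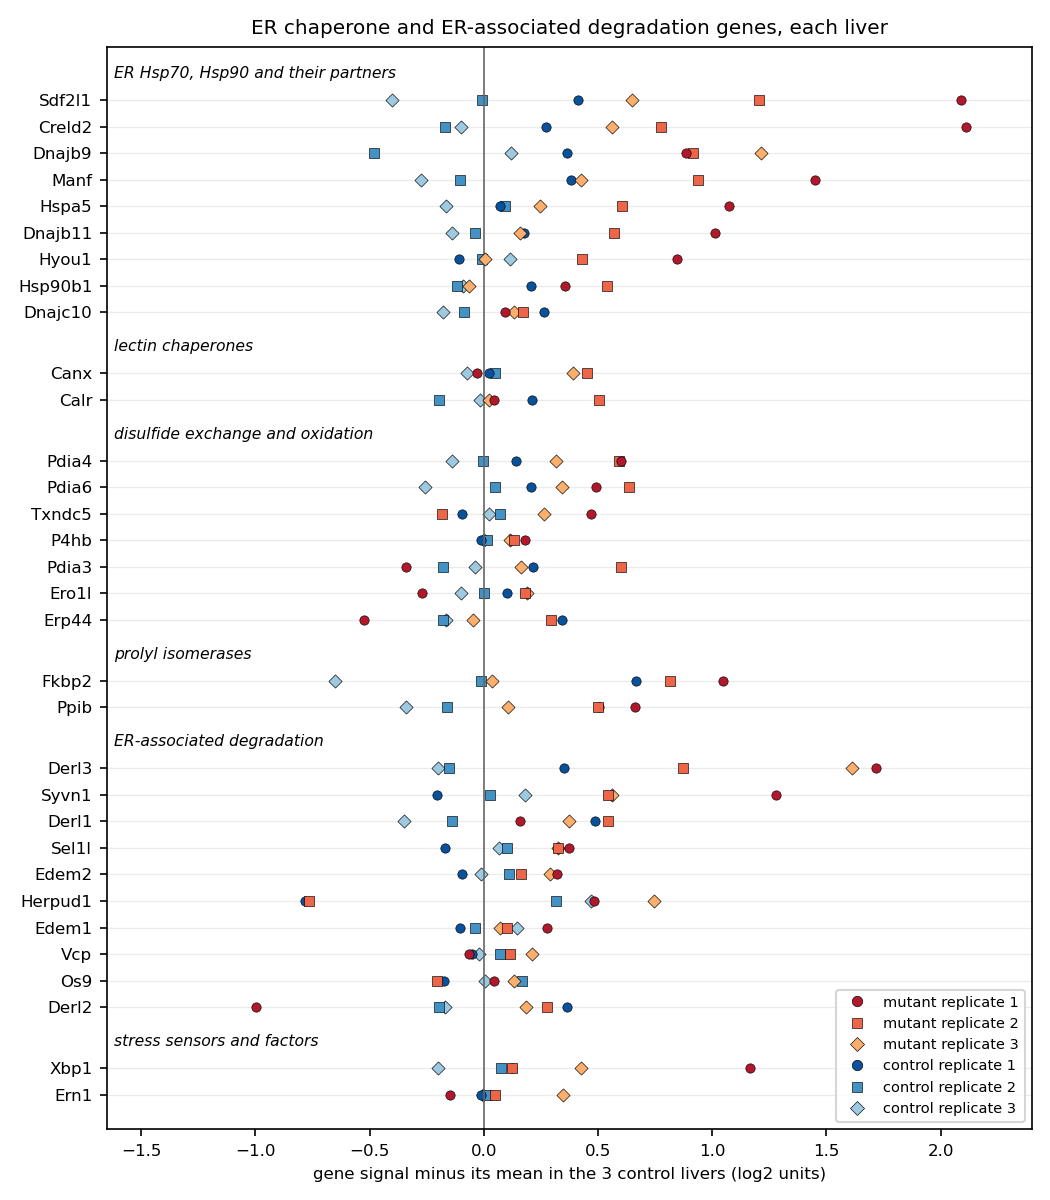
Each row is a measured ER gene, ordered within its role by the size of its difference, and each point is 1 liver, plotted as its log2 signal minus the mean of the 3 controls. Mutant livers are in red to orange and control livers in blue. Mutant points lie to the right of all control points in 13 of 32 rows, and mutant replicate 1 is farthest right in many chaperone rows and farthest left in Derl2, Erp44 and Pdia3.

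The Hsp70 chaperone of the ER and its partners lay higher in mutants as a group: the 9 measured genes of this role were all higher by their means. Their median difference was 0.64, and 6 of the 9 were higher at an unadjusted p under 0.05 (Dnajb9, Sdf2l1, Manf, Creld2, Hspa5 and Dnajb11), beside 2.01% of all genes. As an average over the 9 genes, set against the control mean, mutant replicates 1, 2 and 3 were at 1.1, 0.68 and 0.37, while the controls were between -0.12 and 0.23.

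Dnajb9 (ERdj4), a J-domain partner of Hspa5 that also restrains IRE1, read 10.77, 10.80 and 11.09 in the mutants and 10.24, 9.40 and 9.998 in the controls. Mutants were close together and all above the controls, a 2.01-fold difference (1.01, SE 0.23; limma, adjusted p = 0.943). It was 1.06 without mutant replicate 1, and all 4 of its probe sets were higher with no overlap.

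Sdf2l1, which binds Hspa5 together with Dnajb11, read 10.44, 9.56 and 9.001 in the mutants and 8.76, 8.34 and 7.95 in the controls. The difference was 1.32 (SE 0.36; limma, adjusted p = 0.943), or 2.49-fold, and 0.93 without mutant replicate 1. The mutants covered a wider range than the controls, with replicate 1 highest.

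Creld2, an ER protein induced by stress, read 10.53, 9.19 and 8.98 in the mutants and 8.69, 8.24 and 8.31 in the controls. Its difference of 1.15 (SE 0.38; limma, adjusted p = 0.943) was 2.22-fold with all arrays and 1.59-fold without mutant replicate 1. Manf, a stress-induced protein that is retained in the ER and secreted, read 11.70, 11.19 and 10.68 in the mutants and 10.63, 10.15 and 9.98 in the controls. Mutant replicate 3 exceeded control replicate 1 only slightly, and the difference was 0.94 (SE 0.28; limma, adjusted p = 0.943).

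Hspa5 itself read 12.78, 12.31 and 11.96 in the mutants and 11.78, 11.80 and 11.55 in the controls. All mutants were higher, by 0.64 on average (SE 0.22; limma, adjusted p = 0.943), or 1.56-fold, and by 0.42 without mutant replicate 1. All 11 of its probe sets had a higher mean in mutants.

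Hsp90b1 (GRP94), the Hsp90 chaperone of the ER, read 12.35, 12.54 and 11.93 in the mutants and 12.20, 11.88 and 11.90 in the controls. The groups overlapped, and the difference of 0.28 (SE 0.20) ranged from 0.14 without mutant replicate 2 to 0.45 without mutant replicate 3. Hyou1, the nucleotide exchange factor of Hspa5, and the J-domain co-chaperone Dnajb11 differed by 0.43 and 0.58 with overlapping groups, and by 0.22 and 0.37 without mutant replicate 1. The reductase Dnajc10 (ERdj5) differed by 0.13, with mutants at 8.47 to 8.55 inside the range of the controls, 8.199 to 8.64.

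The lectin chaperones, which hold glycoproteins while they fold, overlapped between the groups. Canx (calnexin) read 8.89, 9.37 and 9.31 in the mutants and 8.95, 8.97 and 8.85 in the controls. Mutant replicates 2 and 3 were above all controls and replicate 1 was among them, so that the difference of 0.27 (SE 0.17) was 0.42 without replicate 1. It was 0.05 with the median over the probe sets of the gene in place of their mean. Calr (calreticulin) read 11.10, 11.56 and 11.08 in the mutants and 11.27, 10.86 and 11.04 in the controls. Its difference of 0.19 (SE 0.19) rested on mutant replicate 2 and was 0.03 without it.

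Enzymes that form and rearrange disulfide bonds were divided. By their means 6 of 7 measured genes were higher in mutants. The median difference was 0.14, and 2 of the 7, Pdia4 and Pdia6, were higher at an unadjusted p under 0.05, beside 2.01% of all genes. Pdia4 (ERp72), a disulfide isomerase, read 11.90, 11.89 and 11.62 in the mutants and 11.45, 11.30 and 11.16 in the controls. Pdia6, an isomerase that binds Hspa5 and IRE1, read 11.83, 11.98 and 11.68 in the mutants and 11.55, 11.39 and 11.08 in the controls. In both genes every mutant exceeded every control, with differences of 0.50 (SE 0.16) and 0.49 (SE 0.17), or 1.42-fold and 1.40-fold, an adjusted p = 0.943 each in limma, and 0.45 and 0.49 without mutant replicate 1.

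P4hb, the classical disulfide isomerase, read 12.43, 12.38 and 12.36 in the mutants and 12.24, 12.26 and 12.25 in the controls. The groups did not overlap, but the difference was only 1.1-fold (0.14, moderated SE 0.13), and none of its 14 probe sets was without overlap. The livers of each group were close together (SD 0.03 in mutants and 0.01 in controls), closer than the moderated SE shows. Txndc5, a thioredoxin-domain isomerase, read 10.62, 9.96 and 10.41 in the mutants and 10.05, 10.22 and 10.17 in the controls. Mutant replicate 2 was the lowest of the 6 livers, and the difference was 0.18 (SE 0.19). It was 0.04 without mutant replicate 1 and 0.37 without mutant replicate 2. The oxidase Ero1l, its retention factor Erp44 and the glycoprotein isomerase Pdia3 differed by 0.03, -0.09 and 0.14. In these 3 genes mutant replicate 1 was the lowest of all livers, and without it the differences were 0.18, 0.12 and 0.38.

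Both prolyl isomerases, which speed the turning of proline bonds, overlapped between groups. Fkbp2 read 11.37, 11.14 and 10.36 in the mutants and 10.99, 10.31 and 9.67 in the controls. Ppib (cyclophilin B) read 11.78, 11.61 and 11.22 in the mutants and 11.62, 10.95 and 10.77 in the controls. Control replicate 1 lay among the mutants in both. Their differences of 0.63 (SE 0.37) and 0.42 (SE 0.25) were 0.96 and 0.67 without control replicate 1, and 0.31 and 0.25 without control replicate 3.

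**Figure D2:**
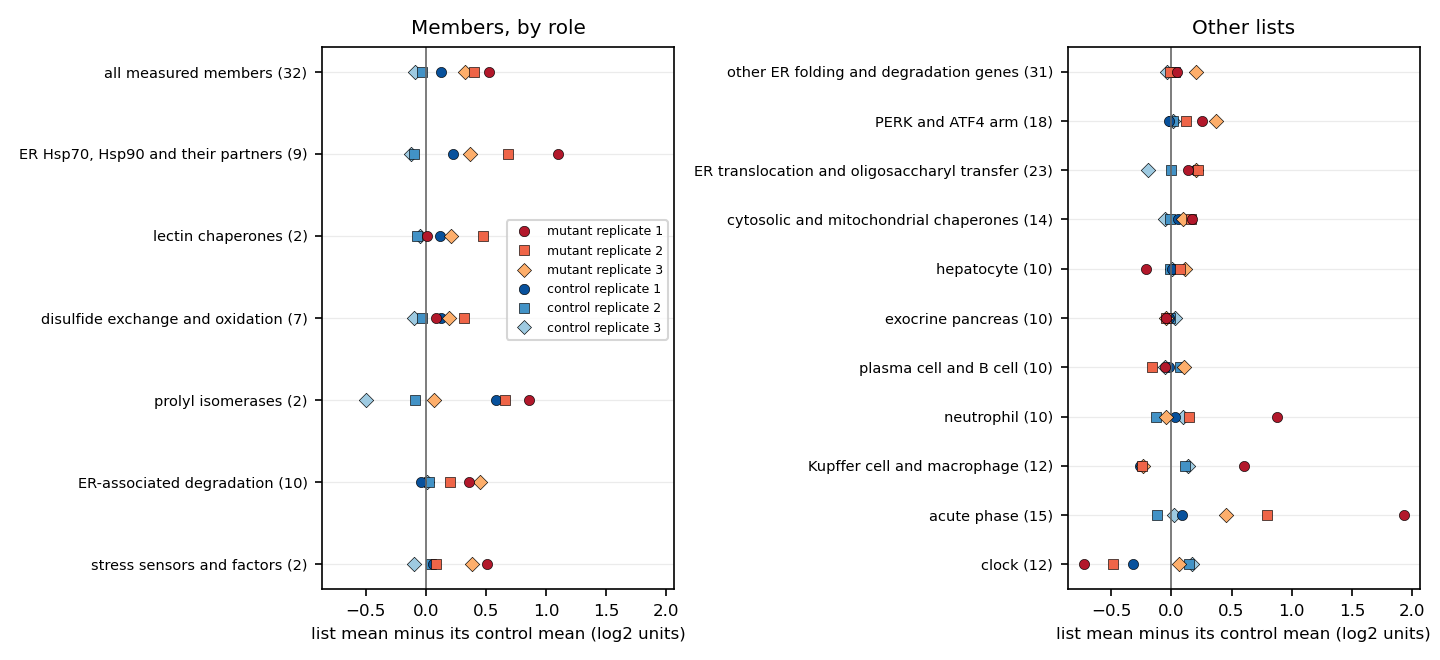
Each point is the mean of a list of genes in 1 liver minus that list's control mean, in log2 units, with the number of measured genes in brackets. The left panel shows the ER genes by role, where the mutant livers lie at 0.37 to 1.1 for the Hsp70 group and at 0.20 to 0.45 for degradation genes, in both cases above all 3 controls. The right panel shows other lists, in which mutant replicate 1 is highest for acute phase, neutrophil and Kupffer cell markers and lowest for clock genes.

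Degradation factors held both the highest difference of the 32 genes, in Derl3, and the lowest, in Derl2. By their means 8 of 10 measured genes were higher and 2 lower, the median difference was 0.21, and 3 were higher at an unadjusted p under 0.05 (Derl3, Syvn1 and Sel1l), beside 2.01% of all genes. Derl3, a derlin of the membrane channel through which misfolded proteins leave the ER, read 8.98, 8.13 and 8.87 in the mutants and 7.61, 7.11 and 7.06 in the controls. All mutants were above all controls, by 2.64-fold (1.40, SE 0.26; limma, adjusted p = 0.609). The difference was 1.24 to 1.67 with any 1 array left out. Its relatives Derl1 and Derl2 differed by 0.36 (SE 0.23) and -0.18 (SE 0.34) with overlapping groups. For Derl1 the difference was 0.60 without control replicate 1, 0.18 without control replicate 3 and 0.13 with the median over its probe sets. In Derl2 mutant replicate 1 read 8.90, the lowest of the 6 livers, and without it the difference was 0.23.

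Syvn1 (HRD1), the ubiquitin ligase at the centre of this channel, read 10.04, 9.30 and 9.32 in the mutants and 8.55, 8.78 and 8.93 in the controls. The groups were separate, with a difference of 0.80 (SE 0.23; limma, adjusted p = 0.943), or 1.74-fold, and 0.55 without mutant replicate 1. Sel1l, the adaptor that stabilises Syvn1, read 10.88, 10.83 and 10.83 in the mutants and 10.34, 10.61 and 10.57 in the controls. The 3 mutants were nearly equal (SD 0.03) and all above the controls, a 1.27-fold difference (0.34, SE 0.15; limma, adjusted p = 0.943). Edem2, a mannosidase that marks glycoproteins for removal, read 8.83, 8.67 and 8.80 in the mutants and 8.41, 8.62 and 8.50 in the controls. It did not overlap between groups either, with a difference of 0.26 (SE 0.14).

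The remaining degradation genes did not separate the groups. Edem1 differed by 0.15, the lectin Os9 by -0.01 and Vcp, the cytosolic ATPase that pulls proteins out of the membrane, by 0.09. Herpud1, which recruits factors to the Syvn1 complex and is singled out after its values were seen, varied widely within both groups. It read 11.75, 10.50 and 12.01 in the mutants and 10.49, 11.58 and 11.74 in the controls, so that mutant replicate 2 and control replicate 1 were low and the other 4 livers high. Its difference of 0.15 (SE 0.45) turned to -0.24 without control replicate 1 and to -0.14 without mutant replicate 3.

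Of the stress sensors and factors, Xbp1 and Ern1 were measured. Xbp1, whose mRNA is spliced by IRE1 into the form that encodes the active factor, read 11.19, 10.15 and 10.45 in the mutants and 10.15, 10.10 and 9.83 in the controls. Mutant replicate 2 and control replicate 1 were level to 2 decimals, so that the groups only just did not overlap, and mutant replicate 1 stood well above the rest. The difference of 0.57 (SE 0.26; limma, adjusted p = 0.943) was 0.28 without that liver. This value is the total over its 12 probe sets and does not measure the splicing step. Ern1 read 9.14, 9.33 and 9.63 in the mutants and 9.27, 9.30 and 9.28 in the controls. The controls were nearly equal and the mutants lay on both sides of them, with a difference of 0.08 (SE 0.17).

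The livers of a group also differed among themselves. Mutant replicate 1 was the highest mutant in 17 of the 32 genes and the lowest in 10, so it was rarely in the middle. In 23 of the 32 genes the SD was larger among mutants than among controls. Control replicate 1 was the highest control in 19 of the 32 genes. With 1 array left out at a time, the count of genes in which all remaining mutants lay above all remaining controls varied. It was 15 of 32 without mutant replicate 2 (13.7% of all genes), 17 without mutant replicate 3 (10.5%), 20 without control replicate 1 (11.6%), 13 without control replicate 2 (8.49%) and 15 without control replicate 3 (7.66%). The count of genes that were higher at an unadjusted p under 0.05 was 9 without mutant replicate 2 (3.55%), 13 without mutant replicate 3 (2.77%), 13 without control replicate 1 (2.98%), 9 without control replicate 2 (1.18%) and 6 without control replicate 3 (1.1%). In each case the share among the 32 genes stood above that of all genes, and 0 of the 32 were lower at that p.

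**Figure D3:**
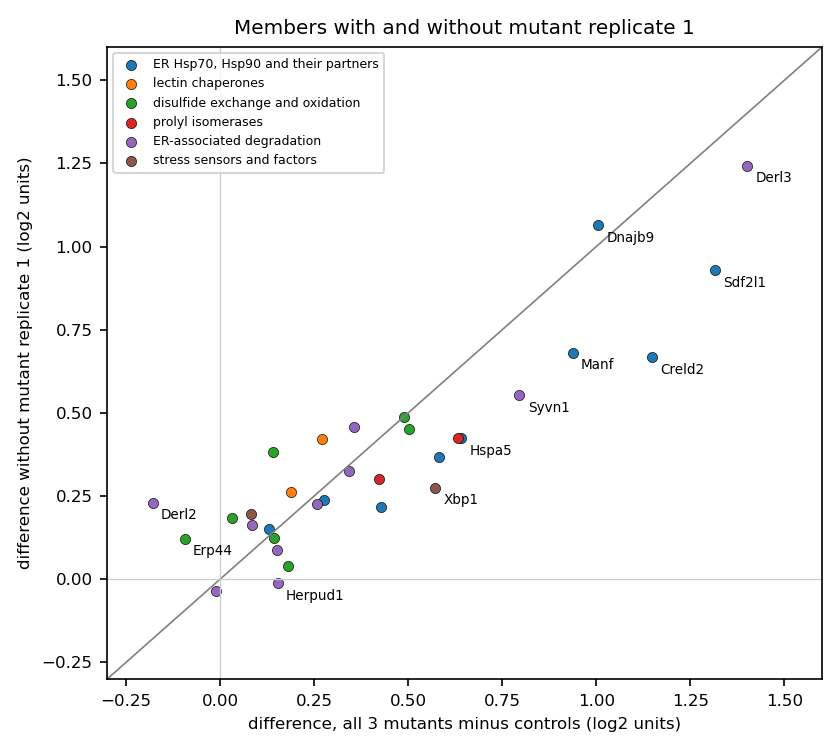
Each point is a measured ER gene, coloured by role, with its difference from all 3 mutants on the horizontal axis and its difference without mutant replicate 1 on the vertical axis, both in log2 units. Points below the diagonal are smaller without that liver, such as Creld2 (1.15 and 0.67) and Xbp1 (0.57 and 0.28), and Dnajb9 lies just above it (1.01 and 1.06).

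Other measures also differed between the livers, and the order of the livers varied between lists. Acute phase genes, many of whose proteins the liver secretes in inflammation, were higher by their means in 15 of 15 measured genes (47.5% of all genes). The 4 of smallest p, Lcn2, Saa3, Hp and Apcs, differed by 4.32, 3.29, 0.92 and 2.28, with overlap only in Apcs. Without mutant replicate 1 these differences were 3.35, 2.08, 0.56 and 1.57. The largest difference of an ER member was 1.40. In 7 of the 15 every mutant lay above every control (5.15% of all genes). At an unadjusted p under 0.05 in limma 7 of the 15 were higher (2.01% of all genes). As a list, mutant replicates 1, 2 and 3 lay 1.93, 0.79 and 0.46 above the control mean, with controls from -0.12 to 0.09. The 3 mutants stood in the same order as in the Hsp70 group, the prolyl isomerases and the 32 ER genes as a list. Other roles had other orders: 0.36, 0.20 and 0.45 for degradation genes and 0.01, 0.48 and 0.21 for lectin chaperones. Disulfide enzymes lay at 0.09, 0.32 and 0.19, and stress sensors and factors at 0.51, 0.09 and 0.39. Neutrophil markers lay at 0.88, 0.15 and -0.04 in the mutants and from -0.13 to 0.10 in the controls, with 7 of 10 higher. In 3 of these 10 every mutant lay above every control (5.15% of all genes). In limma 2 of the 10 were higher at an unadjusted p under 0.05 (2.01% of all genes). These 2, Prtn3 and Ngp, differed by 1.05 and 0.59, and by 0.71 and 0.35 without mutant replicate 1. Kupffer cell and macrophage markers lay at 0.60, -0.24 and -0.23 in the mutants and from -0.26 to 0.14 in the controls, with 7 of 12 higher. Clock genes lay at -0.73, -0.48 and 0.06 in the mutants and from -0.32 to 0.17 in the controls, with control replicate 1 lowest of the controls and 2 of 12 genes higher. The part of these measures in the ER result was not tested. Without mutant replicate 1 the Hsp70 group kept a median of 0.42 with 9 of 9 genes higher, the acute phase list had a median of 0.31 with 12 of 15 higher, and the neutrophil list a median of 0.00 with 5 of 10 higher. Kupffer cell and macrophage markers then had a median of -0.26 with 1 of 12 higher, against 0.03 and 7 of 12 with all arrays, and clock genes a median of -0.12, against -0.27 with all arrays.

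Markers of cell types that are rich in ER were measured as well. Exocrine pancreas markers were dim, with list means of 5.31 to 5.32 in mutants and 5.34 to 5.38 in controls, 3 of 10 higher and a median difference of -0.04. Plasma cell and B cell markers had list means of 5.74 to 6.00 in mutants and 5.84 to 5.97 in controls, with 4 of 10 higher and a median of -0.03.

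Neighbouring pathways had smaller median differences than the 32 genes. Among 31 measured of 34 other ER folding and degradation genes, 21 were higher, the median difference was 0.06, 3 had all mutants above all controls (5.15% of all genes) and 1 had an unadjusted p under 0.05 in the higher direction (2.01% of all genes). A count of 1 in 31 is near that share. The gene was Txndc11, a thioredoxin-domain partner of the mannosidases, with 8.95, 8.98 and 9.09 in mutants and 8.77, 8.32 and 8.29 in controls. In the PERK and ATF4 arm 16 of 18 genes were higher (47.5% of all genes) with a median of 0.21. Every mutant lay above every control in 4 of the 18 (5.15% of all genes). At an unadjusted p under 0.05 in limma 3 of the 18 were higher (2.01% of all genes). Ddit3 (CHOP), a transcription factor of prolonged stress, read 6.74, 6.99 and 6.88 in mutants and 6.04, 6.44 and 6.45 in controls (0.56). Eif2ak3, the PERK kinase, differed by 0.35. In ER translocation and oligosaccharyl transfer 19 of 23 measured genes were higher with a median of 0.15. There 5 had no overlap (5.15% of all genes), and 2 were higher at that p (2.01%). These 2 were Dad1 and Ddost, subunits of the oligosaccharyl transferase, which differed by 1.003 and 0.41. Dad1, with 2 probe sets, overlapped between the groups and differed by 0.78 without mutant replicate 1. Cytosolic and mitochondrial chaperones had 8 of 14 higher and a median of 0.11, and 3 had no overlap (5.15% of all genes). Of the 14, 2 were higher at an unadjusted p under 0.05 (2.01% of all genes). These were Dnajb1 and Hsph1, partners of the cytosolic Hsp70 (0.42 and 0.63). No gene of these 4 lists passed after adjustment over all genes, and the differences between the lists were not tested.

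**Figure D4:**
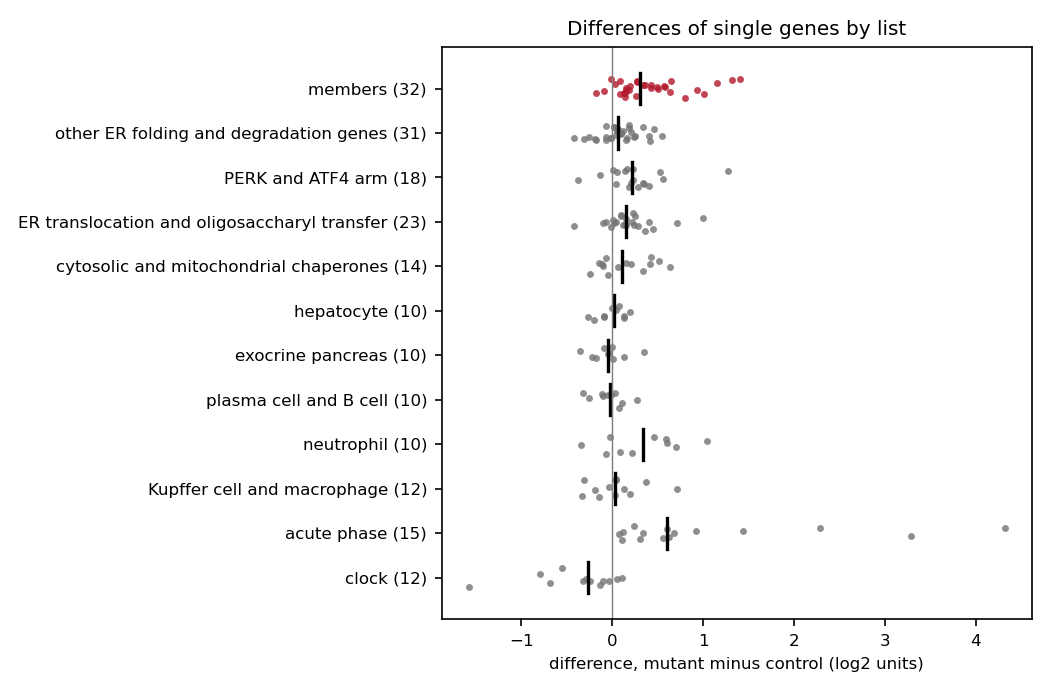
Each point is the difference of 1 gene, mutant minus control in log2 units, grouped by list with the number of measured genes in brackets, and the black bar is the list's median. The ER members (red) have a median of 0.31, other ER genes 0.06, the PERK and ATF4 arm 0.21 and acute phase genes 0.60.

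At the level of single probe sets, most of them pointed the same way as their gene. The 32 genes had 448 probe sets above the signal minimum of 3 out of 451, from 4 to 28 per gene, and only 1 of the 448, in Canx, was kept through its mutant mean alone. Of the 448, 385 (85.9%) had a higher mean in mutants, beside 46.8% of all probe sets. Every mutant lay above every control in 104 (23.2%, against 4.01% of all probe sets) and below in 1 (0.223%, against 4.44%). No probe set passed limma after adjustment, as in the study as a whole (0% of 191663), and 50 had an unadjusted p under 0.05, all higher (1.9% of all). Probe sets of a gene share the same livers and are not separate comparisons. In 14 of the 32 genes every kept probe set was higher, among them Hspa5, Hsp90b1, Hyou1, Sel1l and Xbp1. Herpud1, Ppib and Fkbp2 were also among the 14, though each had 0 probe sets without overlap. The share of all genes with every probe set higher is not given here.

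Exon usage, the departure of a probe set from the rest of its gene, passed the F-test of limma's diffSplice in 0 of the 32 genes after adjustment (0.21% of 14310 genes tested), and 2 of the 32 had an unadjusted p under 0.05 (4% of all genes), a count near the share of all genes. These were Derl3 (adjusted p = 0.289) and Syvn1 (adjusted p = 0.768). In Derl3, 8 of 10 probe sets had all mutants above all controls, and the 4 with the largest differences were 2.19 to 2.36 higher. Probe set 5277859, that of smallest p, read 9.58, 8.50 and 9.35 in the mutants and 7.37, 6.64 and 6.63 in the controls, with no overlap. The pair of brightest probe sets in the controls differed little: 4846579 averaged 12.6 in mutants and 12.5 in controls, and 5617563 averaged 9.63 in mutants and 9.68 in controls. A gene mean that includes both is lower in its difference (1.40) than the median of the gene's probe sets (1.76).

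In Syvn1, 18 of 19 probe sets were higher and 12 had no overlap. Its largest difference was in its dimmest probe set, 4460575, with 5.93, 6.76 and 6.39 in the mutants and 4.48, 3.78 and 4.75 in the controls (2.02, adjusted p = 0.714). Without mutant replicate 1 Syvn1 alone of the 32 genes passed the exon usage test (adjusted p = 0.0319), where 0.314% of all genes did. Without mutant replicate 2 Derl3 alone passed (adjusted p = 0.0107), where 0.405% of all genes did. In Creld2, 6 of 9 probe sets were 1.15 to 1.72 higher with no overlap, and probe set 5311994 went the other way, at 8.21 ± 0.22 in mutants and 8.59 ± 0.35 in controls (SD, n = 3 each). In Canx the probe sets that separated the groups most were dim: 4774327 read 6.07, 6.11 and 5.39 in the mutants and 4.08, 4.66 and 4.07 in the controls, and 5581928 averaged 4.88 in mutants and 2.92 in controls, below the signal minimum in controls. The other 2 of its 4 probe sets without overlap averaged 6.64 and 11.1 in mutants and 5.98 and 10.6 in controls. Mutant replicate 1 was low in 2 further Canx probe sets, with 2.19 in 5256280 and 2.35 in 4696431, where the other 5 livers read 4.03 to 7.40. The positions of the probe sets in the transcripts were not analysed here.

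**Figure D5:**
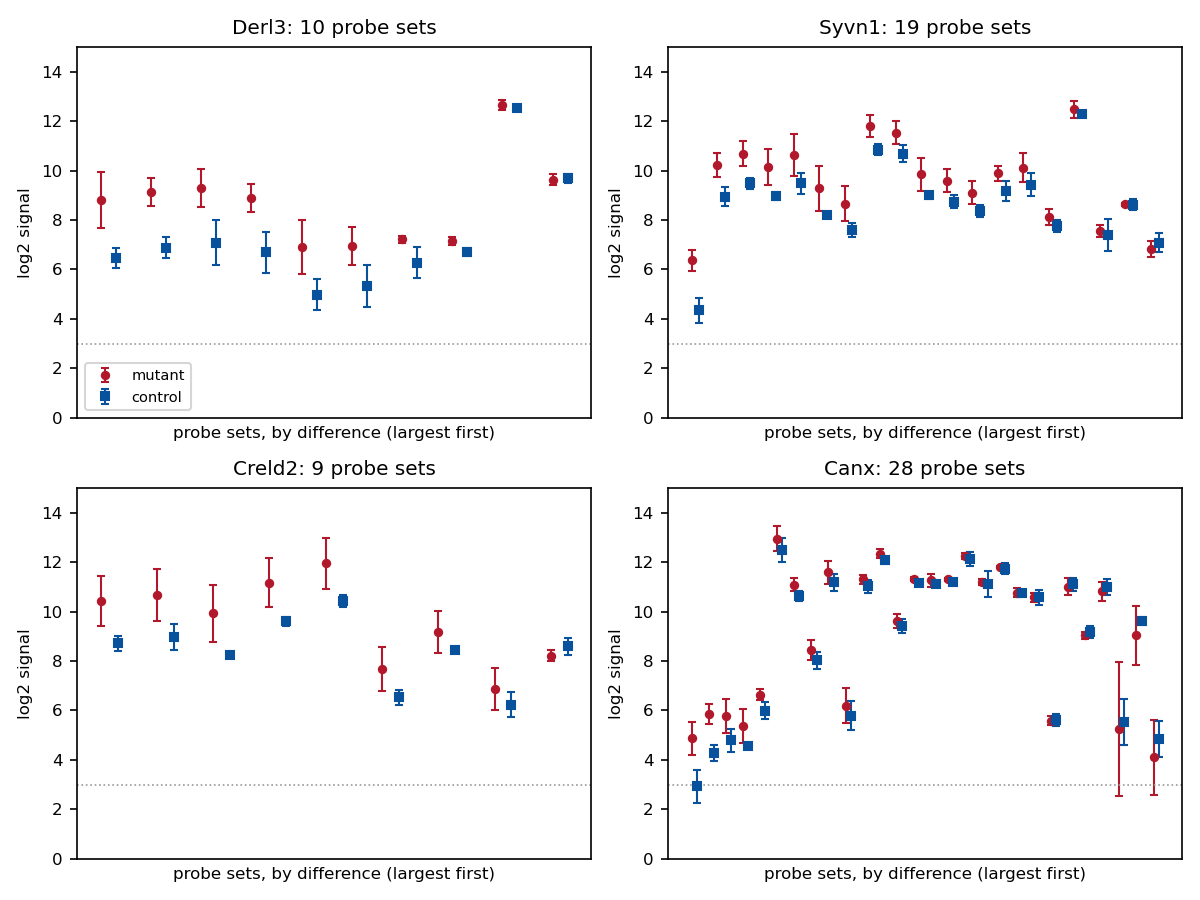
Mean log2 signal ± SD (n = 3 each) of each kept probe set of 4 genes in mutant (red circles) and control livers (blue squares), ordered by difference, with the signal minimum of 3 as a dotted line. In Derl3 the bright probe sets at the right coincide between groups while 8 of 10 are separate in all livers, and in Canx 3 of the 4 separate ones are dim.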

How the data were processed

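RNA from 3 mutant and 3 control livers was hybridised to exon arrays. The deposited values are log2 signals, 1 per probe set and array, for 204531 probe sets. The submitters' processing notes list Affymetrix Expression Console 1.1, RMA, Partek 6.4 and mm9, with no roles. RMA subtracts background, equalises arrays by quantiles and summarises probes, which compresses dim signals. Array medians were 6.73 to 6.95. Read depth does not apply, and the number of arrays limits the precision.

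Gene symbols came from the platform annotation, updated through RefSeq names (13995 current, 2104 through a unique synonym, 40 unmatched). A probe set needed 1 symbol and a group mean of 3 or more (the series' design text names that value), and a gene the mean of at least 2 such probe sets. Groups were compared with limma 3.58.1 (lmFit, eBayes) in R 4.3.3, adjusting p-values by Benjamini-Hochberg across every gene, or every probe set, tested, and exon usage with diffSplice for genes with at least 3 probe sets. Steps were tested on simulated data. Motifs were searched with Python 3.11.15 in RefSeq windows, and no coordinates were converted between builds. Protein features named in the plan were not used here. The gene list, the lists beside it and the tests were chosen with earlier results of these data known. Values per liver are given for the 4 genes of smallest p in each role and for Hspa5, Hsp90b1, Xbp1 and Ern1. Herpud1 is an exception outside this rule, chosen after its values were seen, and other genes are given by differences and ranges. Up to 4 genes of a comparison or marker list were named. Alternatives were other signal minimums (none, 5), quantile normalization, median centring, medians over probe sets, moderation with a trend or none, array weights, a replicate block and leaving out each array.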

Additional observations from a re-analysis of the deposited data

How the results depend on the processing

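With 3 livers per group, 0 of the 32 genes and 0 of their probe sets passed limma after adjustment under any alternative run. The median difference of the 32 genes stayed between 0.25 and 0.38, and that of all genes between -0.05 and 0.04. The count with all mutants above all controls was 10 to 13 under settings that keep all arrays (4.55% to 5.39% of all genes). With 1 array left out it was 13 to 20 (7.66% to 13.7% of all genes), highest without control replicate 1. The count at an unadjusted p under 0.05 was 8 to 15 with all arrays. It was 6 to 13 with 1 left out, lowest without control replicate 3, beside 1.1% to 3.55% of all genes in the higher direction. The count of exon usage calls was 0, apart from 1 each without mutant replicate 1 and without mutant replicate 2. Whether the numbers in the titles pair the livers cannot be decided from these values. Deviations of same-numbered mutants and controls correlated at 0.0981, -0.11 and 0.18, and those of unlike numbers at -0.30 to 0.21. As a list, the 32 genes fell from replicate 1 to 3 in both groups. Set against the control mean, they lay at 0.53, 0.40 and 0.33 in mutants and at 0.13, -0.03 and -0.09 in controls. A part of pairing in this order was not tested. With the replicate block 0 of 32 genes passed and 13 had an unadjusted p under 0.05. The share of all genes at that p is not given here for the alternatives that keep all arrays.

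Of 480 differences of single genes under 15 alternatives 459 kept their direction, in 24 genes throughout. The 21 that turned belong to 8 genes with differences between -0.18 and 0.18. Moderation with a trend, no moderation and the replicate block leave each difference as it was, so its direction was fixed in advance. These settings also fix the median difference and the count without overlap. Dropping the signal minimum could change only the genes of the 3 probe sets left out. With array weights Txndc5 was -0.00148, Erp44 0.16, Herpud1 -0.39 and Derl2 0.15. Os9 was 0.0152 with quantile normalization and 0.0394 with median centring, and Ern1 was -0.00549 with the median over probe sets. With 1 array left out Pdia3 ranged from -0.0885 to 0.38, Erp44 from -0.29 to 0.12, Ero1l from -0.0444 to 0.18, Herpud1 from -0.24 to 0.61, Derl2 from -0.41 to 0.23, Os9 from -0.0964 to 0.0873 and Ern1 from -0.0485 to 0.20. The cause of these turns was not tested.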
